A study of Mus musculus with 50 samples.

Results

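Pigr encodes the polymeric immunoglobulin receptor, and it was followed here through 50 liver arrays as 1 gene of the 30743 measured under a gene symbol. It was read from the single probe that the platform annotation gives to Pigr, in the log2 signal table of the submitters. The gene was chosen because its maternal level was known to be lower under the higher doses of both compounds, so maternal levels are given as a description without a test. Fetal levels were not used for that choice and were tested.

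The arrays measured liver RNA of pregnant CD-1 mice, an outbred strain, and of their fetuses at gestational day 17.5. From embryonic day 1.5 to 17.5 the dams were gavaged every day with vehicle or with 1 of 2 fluorinated acids. Perfluorooctanoic acid (PFOA) was given at 1 or 5 mg/kg/day and GenX (hexafluoropropylene oxide dimer acid) at 2 or 10 mg/kg/day. The groups are called control, PFOA1, PFOA5, GenX2 and GenX10, each in maternal and in fetal liver. Fetuses were exposed only through their dams, and every control had received vehicle. All groups had 5 arrays except fetal PFOA5 with 6 and fetal GenX10 with 4. The labels describe 1 female fetus per litter and call the fetal and maternal livers matching without naming the pairs, so the tissues are treated as independent. The doses of the compounds differ, and PFOA and GenX values are therefore set side by side and not compared.

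The receptor sits on the basolateral face of epithelial cells, binds polymeric IgA and pentameric IgM that carry the J chain, and carries them through the cell in vesicles. At the apical face its outer part is cut off and leaves with the antibody as secretory component. In mice and rats hepatocytes themselves make the receptor and move IgA from blood into bile, whereas in human liver it is chiefly a product of bile duct cells. Its transcription is known to respond to interferon-γ, tumour necrosis factor and Toll-like receptor signals through IRF1 and NF-κB sites, and its basal activity depends on an E-box bound by the USF factors.

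Pigr lies on chromosome 1 at 130826684 to 130852249 on the plus strand of GRCm38.p6, the assembly also called mm10, as a protein-coding gene with identifier 18703. The 250 bases before its RefSeq start are shown because the E-box through which USF factors are known to drive the gene falls inside them. The run covers chr1:130826434-130826683 on the plus strand, and capitals mark CACGTG and begin at position −71 relative to the start.
Pigr promoter: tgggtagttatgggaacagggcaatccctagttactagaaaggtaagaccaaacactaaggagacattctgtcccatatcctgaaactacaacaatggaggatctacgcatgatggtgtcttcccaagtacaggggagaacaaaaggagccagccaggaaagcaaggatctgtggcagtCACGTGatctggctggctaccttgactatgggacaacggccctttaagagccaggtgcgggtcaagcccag
The run is 50.4% G and C. The motifs named next were searched on both strands of the window of 300 bases that also takes in the first 50 bases of the gene, and their shares are over 32851 such RefSeq windows. CACGTG occurred in 7.15% of all windows. The window of Pigr held no IRF core (3.44% of windows), no STAT6-type site (6.95%) and no NF-κB-type site (1.63%). It also held no PPAR direct repeat (0.0396%) and no TATAAA, the core promoter box (13.6%). A match describes letters in this window only.

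Background was set on each array at the 95th percentile of its 5222 negative control probes, which lay between 7.37 and 8.18 on the log2 scale. A gene at or below it on every array of a group is called dim there, and has no exact level. Array medians ran from 5.15 to 5.34, and 4393 to 7488 genes per array lay above background. Maternal PFOA1 replicate 1 stood apart from its group, with Ehhadh, a peroxisomal β-oxidation enzyme induced by these compounds, at 10.54 against 11.94 to 12.36 on the other 4 arrays. For 2 fetal arrays the source names give another group than the title (PFOA5 replicate 6 and GenX2 replicate 5), and 2 others (control replicate 3 and GenX2 replicate 2) went against the female label, with the inactive-X transcript Xist at 5.39 and 4.50 where the remaining fetal arrays had 10.52 to 11.48. Of all genes, 0.0325%, 19.9%, 3.37% and 13.8% passed limma's test (Benjamini-Hochberg adjusted p under 0.05) in maternal PFOA1, PFOA5, GenX2 and GenX10 against control. In fetal liver 0.953%, 3.39%, 6.73% and 9.27% passed in the same order, and between doses 0.0488% passed for PFOA5 minus PFOA1. For GenX10 minus GenX2 the count by limma was 0, and 619 genes had an unadjusted p under 0.05.

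Pigr was a bright transcript in control maternal liver and had a lower mean in every exposed group, and it was under the background level throughout PFOA5. The control arrays read 10.17, 10.41, 10.23, 9.63 and 10.51, a mean of 10.19 ± 0.34 (SD, n = 5), all of them well above background. The PFOA5 arrays read 6.76, 6.75, 6.46, 6.54 and 6.40, a mean of 6.58 ± 0.17 (SD, n = 5), and every one of them was dim. The highest PFOA5 array lay below the lowest control by a wide gap. The signal difference was −3.61 ± 0.34 (log2, SE from the fit of the maternal arrays). With the dim arrays set at their background level, Pigr was at least 6.33-fold lower than in controls.

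With GenX at 10 mg/kg/day the receptor transcript was close to the limit of detection. The 5 arrays read 7.93, 7.43, 7.41, 8.13 and 7.51, a mean of 7.68 ± 0.33 (SD, n = 5), and replicate 2 was below its own background. All 5 lay below the lowest control array. The difference from control was −2.51 ± 0.34 (log2, SE), which is 5.68-fold lower on the signal scale. Signals this close to background are compressed, which makes a fold on this scale understate a change.

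The lower doses gave a middle level with a wide spread between dams. In PFOA1 the arrays read 10.41, 9.09, 8.95, 8.87 and 8.09, a mean of 9.08 ± 0.84 (SD, n = 5), and 4 of 5 lay below every control. Replicate 1, whose Ehhadh was at the control level, also had Pigr within the control range. The difference from control was −1.11 ± 0.34 (log2, SE), or 2.16-fold lower, and it was −1.44 without replicate 1. In GenX2 the arrays read 10.93, 9.76, 8.68, 8.93 and 9.85, a mean of 9.63 ± 0.89 (SD, n = 5). Replicate 1 of that group was the brightest of the 25 maternal arrays, 2 arrays lay below every control, and 4 of 5 lay below the control mean. The size of the GenX2 difference of −0.56 ± 0.34 (log2, SE; 1.47-fold lower) depended on single dams. It was −0.89 without GenX2 replicate 1 and −0.32 without GenX2 replicate 3.

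Ordered by mean within each compound, maternal Pigr ran from control over PFOA1 to PFOA5, and from control over GenX2 to GenX10. Control and PFOA1 overlapped through PFOA1 replicate 1, and PFOA1 and PFOA5 did not overlap. Control and GenX2 overlapped, whereas GenX2 and GenX10 did not. These 4 differences share the same 5 control arrays, and the median of all genes moved by 0.00, −0.05, −0.03 and −0.05 (log2) in PFOA1, PFOA5, GenX2 and GenX10.

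**Figure D1:**
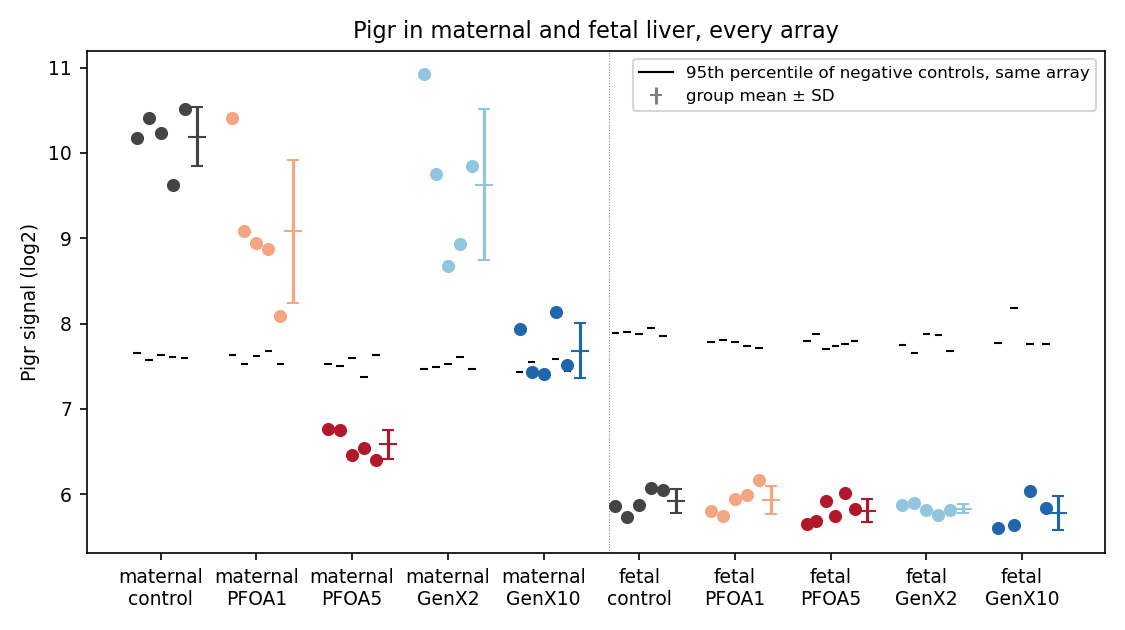
Log2 signal of Pigr on each of the 50 arrays (y axis) by group (x axis), with crosses for the group mean ± SD and short dashes for the background level of the same array, the 95th percentile of its negative controls. Maternal controls sit between 9.63 and 10.51, maternal PFOA5 between 6.40 and 6.76 under the dashes, and all 25 fetal arrays under the dashes.

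Within PFOA1 the level of Pigr followed that of Ehhadh dam by dam, in opposite order. Ehhadh read 10.54, 11.94, 12.18, 12.29 and 12.36 in replicates 1 to 5, and Pigr read 10.41, 9.09, 8.95, 8.87 and 8.09 on the same arrays. The array with the least Ehhadh had the most Pigr, and so on through all 5. GenX2 showed no such order, since its replicate 1 had the highest level of both genes (Ehhadh 12.95, Pigr 10.93). In PFOA5 and GenX10, Ehhadh was nearly flat, at 12.97 to 13.03 and 12.79 to 13.07. Over the 25 arrays, after the group means were taken away, Pearson's r of Pigr was −0.48 with Ehhadh, −0.55 with Pdk4, a kinase that restrains glucose oxidation, and −0.40 with the fatty acid ω-hydroxylase gene Cyp4a14. These describe 25 arrays that share 1 normalization, and all 3 values may lean on PFOA1 replicate 1. Besides its low Ehhadh, that array had Pdk4 at 7.11 against 9.47 to 9.78 on the others of its group. Its Cyp4a14 was at 8.55 against 12.39 to 12.55. The values of r without this array were not calculated.

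**Figure D2:**
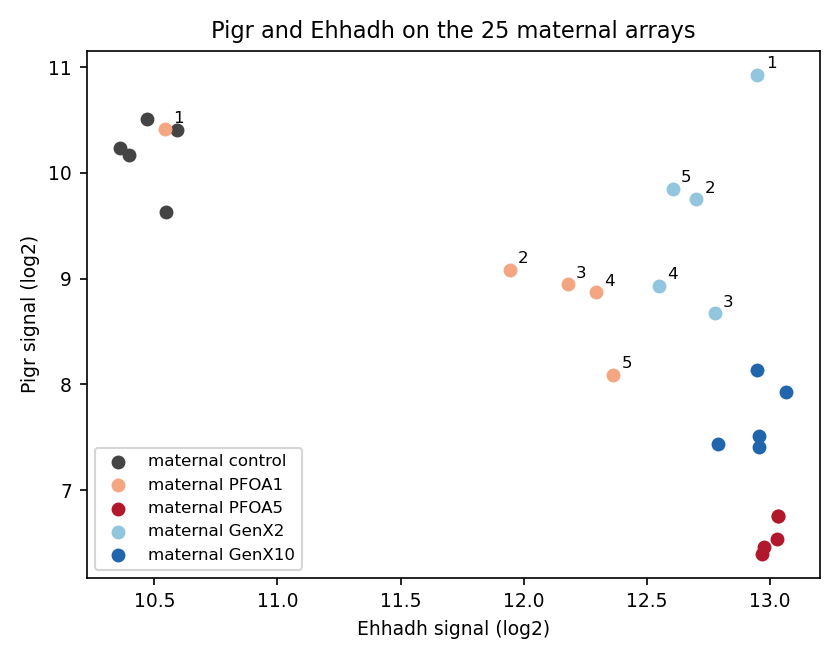
Pigr (y axis) against Ehhadh (x axis), both as log2 signal, on the 25 maternal arrays, coloured by group, with replicate numbers beside the PFOA1 and GenX2 arrays. PFOA1 replicate 1 lies among the controls, the other PFOA1 arrays descend from replicate 2 to replicate 5, and GenX2 spans 8.68 to 10.93 in Pigr at nearly 1 level of Ehhadh.

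Fetal liver at this age gave no Pigr signal above background in any group. The fetal control arrays read 5.86, 5.73, 5.87, 6.07 and 6.05, a mean of 5.92 ± 0.14 (SD, n = 5), against 10.19 in maternal controls. Adult control liver was therefore at least 4.91-fold higher (difference 4.27, log2). The means were 5.93 ± 0.17 (SD, n = 5) in PFOA1, 5.81 ± 0.14 (SD, n = 6) in PFOA5, 5.83 ± 0.05 (SD, n = 5) in GenX2 and 5.78 ± 0.20 (SD, n = 4) in GenX10. The highest fetal array was at 6.17 (PFOA1 replicate 5).

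No fetal difference passed the test. Against control, the log2 difference was 0.01 (95% interval −0.17 to 0.20, limma adjusted p = 0.99) for PFOA1 and −0.11 (−0.29 to 0.07, limma adjusted p = 0.69) for PFOA5. It was −0.09 (−0.27 to 0.10, limma adjusted p = 0.60) for GenX2 and −0.14 (−0.33 to 0.06, limma adjusted p = 0.34) for GenX10. Exact two-sided permutation tests of these 4 differences gave p = 0.91, 0.22, 0.25 and 0.25, and 0.91, 0.34, 0.34 and 0.34 after Benjamini-Hochberg adjustment over the 4. Dose against dose, PFOA5 minus PFOA1 was −0.12 (limma adjusted p = 0.66) and GenX10 minus GenX2 was −0.05 (limma adjusted p = 1.00). Fetal Pigr was under background already in controls, so a lower level of the transcript might not show in this signal. Ehhadh, by contrast, rose on fetal arrays by 3.30, 3.52, 3.51 and 3.55 (log2) in PFOA1, PFOA5, GenX2 and GenX10 (the highest limma adjusted p was 1.1e-14, in PFOA1). With the arrays of conflicting labels left out, the PFOA5 and GenX2 differences were −0.12 and −0.08.

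The cell makeup of the samples bears on how these levels are read, because in whole liver fewer cells of a type and less RNA per cell cannot be told apart. Hepatocyte markers were bright in both tissues. The summed signal of the 10 measured ones lay at 15.88 to 15.93 (log2) in maternal controls, 15.78 to 15.88 in PFOA5 and 15.81 to 15.91 in GenX10. Controls and PFOA5 did not overlap, with the lowest control at 15.8839 and the highest PFOA5 array at 15.8757. Albumin (Alb) read 13.45 ± 0.04 in maternal controls and 13.43 ± 0.03 in PFOA5 (SD, n = 5 each). Of the 10 hepatocyte markers, 1 rose and 1 fell in PFOA5, and 1 rose in GenX10. Without control replicate 1, 3 or 5 or PFOA5 replicate 1, the PFOA5 count was 1. Of all genes, 10.8% rose and 9.04% fell in PFOA5, and 7.55% and 6.22% in GenX10. The fall in PFOA5 was in F2, prothrombin (−0.38 ± 0.07). Bile duct markers were mostly at background in dams: Krt19, Epcam, Cftr and Muc1 were dim on all 25 maternal arrays, and their list of 9 summed to 10.11 to 10.34 in controls, 9.99 to 10.19 in PFOA5 and 10.09 to 10.14 in GenX10. In PFOA5, 1 of them passed, Tff2 (−0.59 ± 0.21, limma adjusted p = 0.045), which was dim in PFOA5 and on 4 of 5 control arrays. Control replicate 4 read 7.81 and the other controls 6.07 to 6.29, and the difference was −0.26 without it. The call was lost without PFOA5 replicate 1, 2, 4 or 5. In GenX10, 1 bile duct marker passed, Sox9, which was higher, and its call was lost in 8 of 19 other settings. Fetal liver was rich in blood precursors, whose 8 measured markers summed to 13.09 to 13.41 in fetal controls against 9.81 to 10.22 in maternal controls. What part this plays in the dim fetal Pigr was not tested.

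Markers of the liver zones moved in both directions. Of 8 periportal markers, 2 rose and 1 fell in maternal PFOA5, where 19.9% of all genes passed. The risers were Hsd17b13, a lipid droplet enzyme, from 9.09 to 9.91 (0.82 ± 0.21), and Arg1, the arginase of the urea cycle (0.30 ± 0.09). The one that fell was Hal, the first enzyme of histidine breakdown, from 9.61 in controls to 8.61 (limma adjusted p = 0.00012). Hal also fell in GenX10 (−0.93 ± 0.17, limma adjusted p = 0.00047). Of 10 pericentral markers, 4 fell and 1 rose in both PFOA5 and GenX10, with a median of −0.32 and −0.04 (log2). In GenX10, 13.8% of all genes passed. Slc1a2, a glutamate transporter next to the central vein, read 8.59 on average in controls and was dim in both groups. It was at least 2.09-fold lower in PFOA5 (limma adjusted p = 2.8e-07) and at least 2.16-fold lower in GenX10 (limma adjusted p = 2.5e-06). Gulo, the last enzyme of vitamin C synthesis, fell by 1.71 ± 0.17 in PFOA5 and fell by 0.70 ± 0.17 in GenX10. Aldh1a1, a retinal dehydrogenase, was the pericentral marker that rose (0.77 ± 0.11 in PFOA5).

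The J chain and the IgM heavy chain, which were measured among the chains the receptor carries, gave no signal above background in control or PFOA5 dams. Of 16 genes listed as its ligands and as other immunoglobulin receptors, 12 were measured and 6 were dim on all 50 arrays. Jchain, the joining chain that the receptor recognises, read 4.47 on average in maternal controls and 4.18 in PFOA5. Ighm, the IgM heavy chain, ran from 6.42 to 7.28 in controls and from 6.07 to 6.35 in PFOA5. Both were dim in both groups, where their calls in PFOA5 (−0.28 ± 0.09, limma adjusted p = 0.023, and −0.54 ± 0.19, limma adjusted p = 0.046) were lost in 8 and 9 of 18 other settings. The B and plasma cell markers were dim on all arrays in 8 of 9 cases and summed to 9.81 to 10.14 in maternal controls, 9.76 to 9.93 in PFOA5 and 9.78 to 9.96 in GenX10.

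The other receptors for immunoglobulin moved in both directions. Fcgrt, the neonatal Fc receptor that protects IgG and albumin from breakdown, read 9.12, 9.08, 9.08, 9.46 and 8.95 in maternal controls and 9.77, 10.05, 9.90, 9.97 and 10.12 in PFOA5. The groups did not overlap, and Fcgrt rose by 0.83 ± 0.11 (limma adjusted p = 5.0e-06). It also rose in GenX2 (0.56 ± 0.11, limma adjusted p = 0.0029) and GenX10 (0.74 ± 0.11, limma adjusted p = 3.7e-05), and B2m, its light chain, passed in no comparison. The asialoglycoprotein receptor, a hepatocyte lectin that takes up desialylated proteins including IgA, fell in PFOA5 in both subunits, with Asgr1 at −0.58 ± 0.12 (limma adjusted p = 0.00092) and Asgr2 at −0.62 ± 0.13 (limma adjusted p = 0.0015). Neither passed in GenX10, where the differences were −0.27 and −0.25. Cd5l, a macrophage protein that binds circulating IgM, rose in PFOA5 (0.84 ± 0.20) and GenX10 (0.72 ± 0.20).

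In counts, 2 of the 12 measured genes rose and 5 fell in maternal PFOA5, where 10.8% and 9.04% of all genes rose and fell. The median of the 12 was −0.12 against −0.05 for all genes. The number of calls was 4 in place of 7 without control replicate 1 or without PFOA5 replicate 1, 2 or 5. In GenX10, 2 rose and 1 fell, where 7.55% and 6.22% of all genes rose and fell. That count of 3 became 1 without GenX10 replicate 1 or 5. In GenX2 1 rose, where 2.43% of all genes rose and 0.937% fell. In PFOA1 limma called 0 of the 12, with 1 at an unadjusted p under 0.05. Kupffer cells and macrophages, which make Cd5l, had 4 of 12 markers higher in PFOA5 and 2 of 12 in GenX10, where 10.8% and 7.55% of all genes rose. The markers summed to 10.42 to 11.22 in controls, 10.58 to 11.47 in PFOA5 and 10.98 to 11.61 in GenX10. Leaving out single arrays gave 0 to 8 such calls in PFOA5 and 0 to 6 in GenX10. Their part in the rise of Cd5l was not tested.

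**Figure D3:**
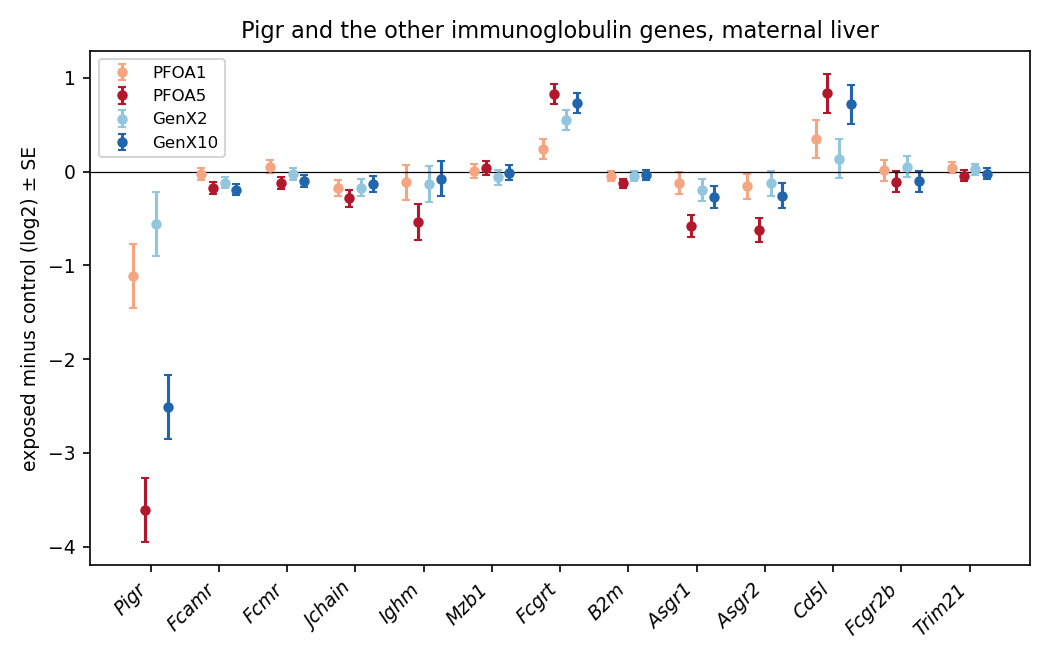
Log2 difference from maternal control (y axis) with bars of ± 1 SE for Pigr and the 12 measured genes of immunoglobulin chains and receptors (x axis), in the 4 exposed maternal groups. Pigr lies at −3.61 in PFOA5 and −2.51 in GenX10, whereas Fcgrt lies at 0.83 and 0.74 and B2m near 0.

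The genes that carry the receptor through the cell moved by less than 1 log2 unit where they moved. Of 20 genes of transcytosis, 19 were measured. In maternal PFOA5 4 of them rose and 3 fell, where 10.8% and 9.04% of all genes rose and fell. The median of the 19 was 0.04 (log2) against −0.05 for all genes. The risers included Vps35 (0.44 ± 0.12) and Vps26a (0.43 ± 0.10), subunits of the retromer that returns the receptor to the surface route, and Ap1m1 (0.39 ± 0.08), a basolateral sorting adaptor. The fourth was Rab3d, a vesicle GTPase that was dim in controls (0.26 ± 0.08). Egfr, whose signal relays binding of IgA into faster transport, fell by 0.71 ± 0.17 (limma adjusted p = 0.0039). Rab17 and Rab3b, small GTPases of epithelial transport that were dim throughout, had differences of −0.19 and −0.18 that passed, and each call was lost in 10 of 18 other settings. The 7 calls became 4 without control replicate 2 or 4 or PFOA5 replicate 3 or 4. In GenX10, 3 rose and 1 fell, where 7.55% and 6.22% of all genes rose and fell. These again included Vps35 (0.39 ± 0.12), Ap1m1 (0.30 ± 0.08) and Egfr (−0.56 ± 0.17). The 4 calls became 2 without control replicate 1 or 3 or GenX10 replicate 1. The calls of Vps35 and Egfr in GenX10 were lost in 6 and 8 of 19 other settings. In PFOA1 and GenX2 limma called 0 of the 19, with 1 and 4 at an unadjusted p under 0.05. Rab5a, Rab11a, Rab11b and Myo5b, which run the shared endosome steps, passed in no maternal comparison.

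At the canalicular membrane, where secretory component leaves for bile, transporter genes rose. Of 11 measured, 6 rose and 1 fell in PFOA5, and 6 rose in GenX2 and in GenX10. Among all genes, 10.8% rose and 9.04% fell in PFOA5, and 2.43% and 7.55% rose in GenX2 and GenX10. Abcb4, the phospholipid floppase, rose by 1.23 ± 0.15, 0.84 ± 0.15 and 1.02 ± 0.15 in PFOA5, GenX2 and GenX10. The sterol exporter genes Abcg5 and Abcg8 rose by 1.09 ± 0.12 and 1.09 ± 0.15 in PFOA5, and by 1.19 ± 0.12 and 1.35 ± 0.15 in GenX10. The bile salt pump gene Abcb11 was the one that fell in PFOA5 (−0.38 ± 0.10, limma adjusted p = 0.011).

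Of 26 receptors and transcription factors known to act on Pigr, 22 were measured. In maternal PFOA5, 3 rose and 2 fell, where 19.9% of all genes passed, with a median of −0.06 (log2), and 12 had an unadjusted p under 0.05. The 5 calls became 3 without control replicate 2 or 3 or PFOA5 replicate 4 or 5, and were 4 to 10 under the other settings. Usf2, an E-box factor, passed in no comparison, with 8.51 to 9.13 in maternal controls and 8.43 to 8.78 in PFOA5. Its partner gene Usf1 was dim on all 50 arrays and passed in none. Irf1, the interferon-induced activator, read 7.37, 7.42, 7.10, 7.23 and 7.23 in maternal controls and 7.03, 6.97, 6.83, 6.78 and 7.11 in PFOA5. It was dim on all arrays, and its difference passed in PFOA5 (−0.33 ± 0.09, limma adjusted p = 0.0098) and GenX10 (−0.39 ± 0.09, limma adjusted p = 0.0044). In fetal liver Irf1 also passed in PFOA5 (−0.29), GenX2 (−0.44) and GenX10 (−0.41).

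Ifngr2, a chain of the interferon-γ receptor, rose in PFOA5 (0.47 ± 0.08, limma adjusted p = 8.8e-05), GenX2 (0.38 ± 0.08) and GenX10 (0.54 ± 0.08). Myd88, the adaptor of Toll-like receptors, was dim in controls, and its difference of 0.34 ± 0.10 passed in both PFOA5 and GenX10. The NF-κB subunit gene Rela, the glucocorticoid receptor gene Nr3c1 and the hepatocyte factor Hnf4a passed in no comparison. In fetal liver 1 rose and 3 fell in PFOA5, where 2.34% and 1.05% of all genes rose and fell, and the 4 calls became 2 without control replicate 2. In each GenX group 3 fell, where 3.90% and 2.83% of all genes rose and fell in GenX2 and 4.42% and 4.85% in GenX10. Without control replicate 1, the GenX2 count was 1. These falls were in Irf1, Tnfrsf1b and Il17ra, all of them dim.

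Genes that interferon-γ and NF-κB are known to induce were near background in dams, with 11 of 19 dim on all 50 arrays. In maternal PFOA5, 1 rose and 3 fell, where 19.9% of all genes passed, with a median of 0.00 (log2) against −0.05 for all genes. The 4 calls became 2 without control replicate 1 or PFOA5 replicate 2, and were 1 to 6 under the other settings, the lowest with dim genes left out. Psmb8, an immunoproteasome subunit, was dim in both groups with a difference of −0.57 ± 0.08 (limma adjusted p = 1.9e-05), and Psmb10, another subunit, fell by 0.21 ± 0.06. The chemokine gene Cxcl10, also dim, had a difference of 0.40 ± 0.11 in the other direction. In GenX2 and in GenX10, 1 fell, Psmb8 (−0.30 ± 0.08 and −0.38 ± 0.08), where 0.937% and 6.22% of all genes fell. The GenX2 call was lost in 10 of 18 other settings.

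Pigr lies in a cluster of immunoglobulin receptor genes, and most of its named neighbours were dim in maternal liver. Fcamr, a receptor for IgA and IgM, ends 780 bases before Pigr, and Fcmr, an IgM receptor, begins 13527 bases after it, at 130865777 to 130880790. Fcamr read 6.05 on average in maternal controls and 5.87 in PFOA5, and Fcmr 5.85 and 5.73, all of it dim. The Fcamr differences of −0.17 ± 0.06 in PFOA5 and −0.19 ± 0.06 in GenX10 passed, but were lost in 12 and 10 of 18 other settings. The lncRNA gene Gm15848, which lies within the span of Fcamr, was dim with differences of −0.34 ± 0.07 and −0.25 ± 0.07 that passed. Beyond Fcmr, the interleukin genes Il24, Il20, Il19 and Il10 were dim and passed in no maternal comparison.

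Of the 6 named genes on each side, the bright ones were C4bp and Mapkapk2. C4bp, which encodes a brake on complement and lies 165026 bases before Pigr, read 10.68, 10.99, 10.90, 10.93 and 10.99 in maternal controls and 10.07, 10.09, 9.85, 10.07 and 10.08 in PFOA5. The groups did not overlap, and C4bp fell by 0.86 ± 0.11 in PFOA5 (limma adjusted p = 2.3e-06) and fell by 0.89 ± 0.11 in GenX10 (limma adjusted p = 2.2e-06). Its fall by 0.42 ± 0.11 in GenX2 was lost in 8 of 19 other settings. Mapkapk2, a stress-activated kinase 201450 bases after Pigr, rose by 0.54 ± 0.10 in PFOA5 and 0.48 ± 0.10 in GenX10.

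**Figure D4:**
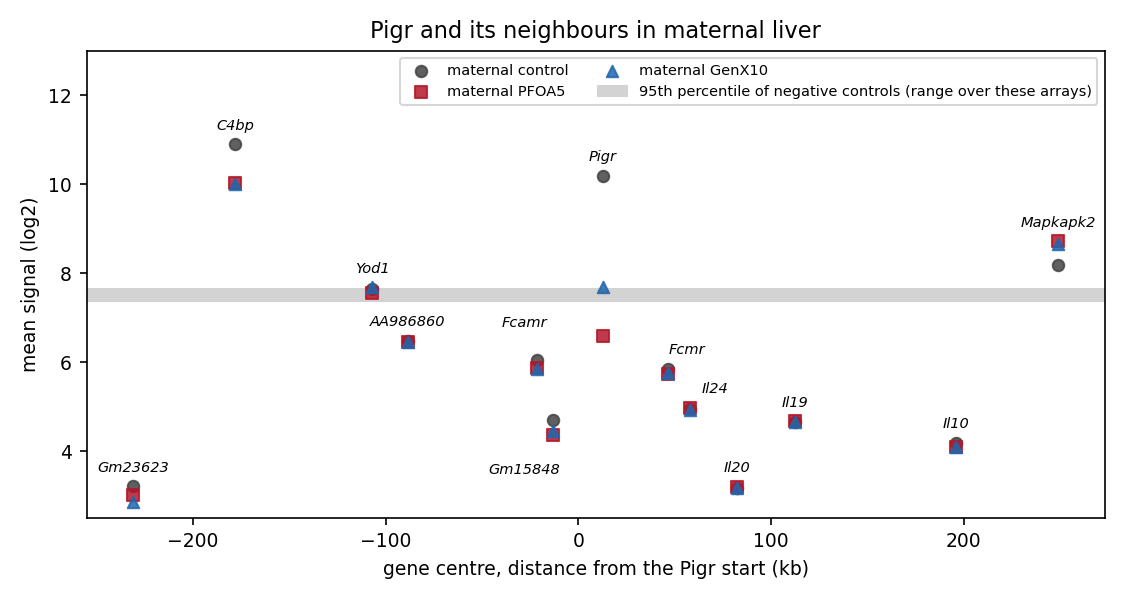
Mean log2 signal (y axis) in maternal control, PFOA5 and GenX10 of Pigr and its 6 named neighbours on each side, placed by the distance of the gene centre from the Pigr start in kb (x axis). The grey band is the range of the background level over these arrays. Pigr goes from 10.19 to 7.68 and 6.58, and most neighbours stay at or under the band in all 3 groups.

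Likeness to Pigr was ranked over the 25 maternal arrays by Pearson's r among 5332 genes above background on at least 5 of them. Group differences enter that r, and the genes were picked by it, so their values are a description. The median r was −0.21, with 3 genes over 0.9 and 3 under −0.9. Most alike was Cyp4f14, a fatty acid and leukotriene ω-hydroxylase (r = 0.94), followed by Aox3, an aldehyde oxidase (0.93), and Fndc4, a secreted anti-inflammatory factor (0.91). The next were Pla1a (0.89), Mpnd (0.88), Abca2 (0.88), Cbs, the first enzyme of transsulfuration (0.88), and Akr1c6, a hydroxysteroid dehydrogenase (0.87). Like Pigr, Cyp4f14 was dim in PFOA5, and Aox3, Fndc4 and Pla1a were dim in both PFOA5 and GenX10. Fndc4 was above background on only 3 of 5 control arrays. The r of these genes therefore takes in signal under background. When genes were ranked by Spearman's rho, 5 of the 8 stayed among the top 8.

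Only part of this likeness was found between dams of the same group. With group means taken away, r stayed at 0.70 for Cyp4f14 and 0.66 for Aox3, and was 0.29 for Pla1a. Cyp4f14 read 9.82, 9.03, 8.44, 8.46 and 9.32 in PFOA1, and 9.68, 8.80, 7.66, 8.07 and 9.05 in GenX2. In GenX2 it ran in the same order of dams as Pigr, from replicate 1 at the top to replicate 3 at the bottom. It was 9.68 on average in controls and dim in PFOA5, with a mean of 6.22.

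Genes of the opposite pattern were Plpp2, a lipid phosphate phosphatase (r = −0.93), Uap1l1 (−0.92), Ly6d, a surface antigen (−0.91), and Alas1, which starts haem synthesis (−0.90). All 4 were also the lowest by Spearman's rho. Ly6d held the relation best within groups, at −0.82. It read 6.61, 7.90, 8.51, 7.85 and 8.61 in PFOA1 and 7.60, 8.45, 9.44, 8.83 and 8.46 in GenX2, lowest in replicate 1 of both groups, where Pigr was highest. CACGTG was in a promoter window of 1 of the 7 most alike genes that had one, Cbs, and in 0 of 2 of the least alike. Of all windows, 7.15% held it, a share per window, whereas a gene counted here if any of its windows matched. Counts this small do not set these genes apart from that share.

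**Figure D5:**
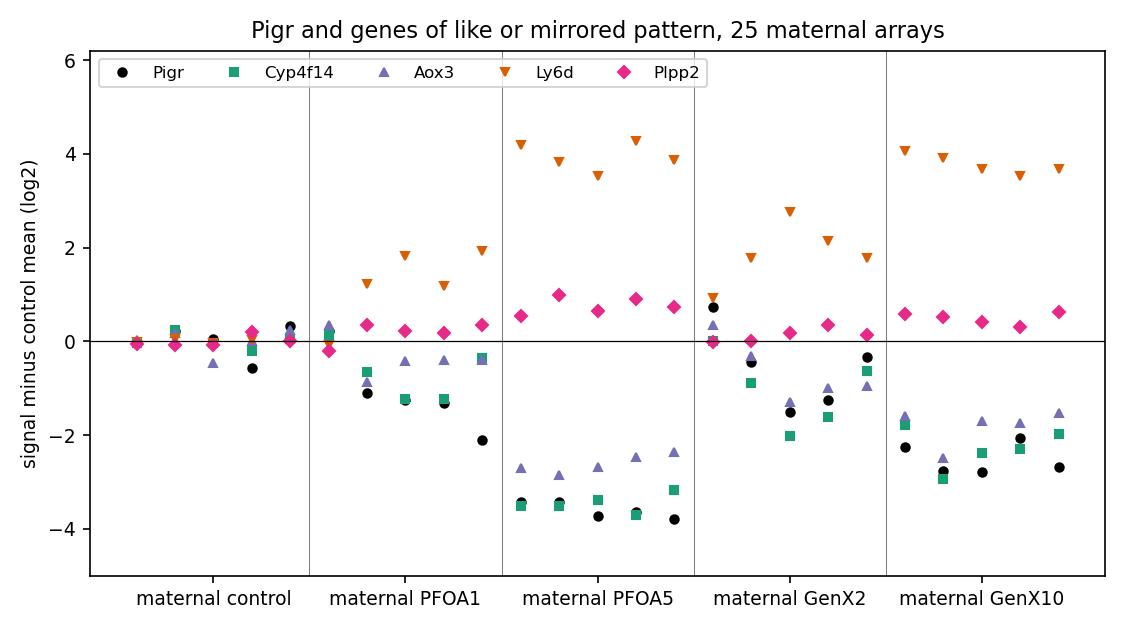
Log2 signal minus the control mean of the same gene (y axis) on each of the 25 maternal arrays (x axis, replicates in order within each group) for Pigr, 2 of its most alike genes and 2 of opposite pattern. Cyp4f14 runs near Pigr, and Aox3 lies nearer to 0 in PFOA5, where Pigr, Cyp4f14 and Aox3 are all dim. Ly6d runs the other way, near 4 in PFOA5 and GenX10.

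In fetal liver, where Pigr was dim, the same ranking over 25 arrays and 4493 genes describes signal near background. The highest r was 0.76 (Klc4, a kinesin light chain) and the lowest −0.75 (Iars and Nars, aminoacyl-tRNA synthetases), and 3 of the 8 most alike genes stayed there by Spearman's rho. Fetal Aox3, unlike fetal Pigr, was above background in 4 of 5 controls, with 8.26 on average, and was dim in PFOA5, GenX2 and GenX10. It was at least 1.40-fold, 1.42-fold and 1.32-fold lower there (limma adjusted p = 2.7e-07, 7.2e-07 and 1.3e-07). Fetal Cyp4f14 was at 5.05 in controls and, like Pigr, dim in every fetal group.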

How the data were processed

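Labelled RNA was hybridised to Affymetrix whole-transcript arrays, 25 of maternal and 25 of fetal liver. The authors deposited 1 table of log2 signals. The submitters' processing notes name RMA and mm10, without versions. RMA equalises the distributions of arrays, so shifts of most genes would be partly removed. Whether RMA was run once over all arrays is not stated in the labels. Precision is limited by the number of arrays.

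Of the named probes, 30604 had 1 symbol, 612 several symbols of 1 gene, and 1534 symbols of several genes, which were left out. Symbols of 827 probes were updated, and the brightest probe stood for each of 364 genes with several, which gave 30743 genes. Gene coordinates and the promoter are from RefSeq (GRCm38.p6).

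Groups follow the sample titles. Linear models (limma 3.58.1 in R 4.3.3, lmFit and eBayes) had 1 fit of 5 groups per tissue, two-sided, with Benjamini-Hochberg adjustment over all genes at 0.05. Arrays are separate dams or fetuses as far as the labels say. Tables and figures used Python 3.11.15, pandas 2.3.3, numpy 2.4.6 and matplotlib 3.10.9. On data simulated for 30743 genes, 87% of genes changed by 0.5 and 99% of those changed by 1 (log2) were called for maternal GenX10, with 6.53% of calls false. The simulated noise was independent between genes and only 200 genes were raised, so these rates need not hold for the real arrays.

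Pigr, the 12 gene lists and the rules were chosen with earlier results of these data known, so the lists are not independent evidence. Named are Pigr, its 6 named neighbours on each side, its 8 most and 4 least alike genes per tissue, up to 4 members of a list with the smallest adjusted p, members dim everywhere, and a few fixed genes (Fcamr, Fcmr, Jchain, Fcgrt, Irf1, Usf1, Usf2, Ehhadh, Cyp4a14, Pdk4). Listed genes without a probe of their own symbol, such as Igha, are not analysed here. Replicate numbers recur across groups. Deviations of same-numbered exposed and control arrays correlated at −0.54 to 0.59, and no comparison had every pair over 0.1. The highest were fetal PFOA1 replicate 5 (0.59), fetal GenX2 replicate 5 (0.48) and fetal GenX10 replicate 2 (0.46). Whether the numbers mark a batch was not tested. Alternatives covered normalization, probe choice, array weights, dim genes, an intensity trend, the arrays in the fit, fetal labels, a replicate block and each array left out.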

Additional observations from a re-analysis of the deposited data

Results flagged for a closer look

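In 8 genes and 10 groups, 80 sets of 4 to 6 arrays were checked for 1 array far from the rest by Dixon's criterion, which chance meets in about 1 of 20 sets. It was met 7 times, and by Pigr in no group. Ehhadh in maternal PFOA1 replicate 1 was at 10.54, against 11.94 to 12.36 on the other arrays. Pigr on that array was at the control level. Aox3 in maternal GenX10 replicate 2 was at 5.78, against 6.54 to 6.74, all of them dim. That array was the only one of its group with Pigr below background. Aox3 in fetal GenX2 replicate 4 was at 4.60, against 5.79 to 6.17, all of them dim. Fcgrt in fetal PFOA1 replicate 5 was at 9.90, against 8.96 to 9.13. Fcamr in fetal PFOA5 replicate 1 was at 5.36, against 5.63 to 5.80, all of them dim. C4bp in maternal PFOA5 replicate 3 was at 9.85, against 10.07 to 10.09. Irf1 in fetal GenX10 replicate 3 was at 6.86, against 6.49 to 6.55, all of them dim.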

How the results depend on the processing

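Pigr kept its direction in all 4 maternal groups under every alternative run. With each array left out in turn, the maternal difference from control lay between −1.44 and −0.86 (PFOA1), −3.75 and −3.53 (PFOA5), −0.89 and −0.32 (GenX2), and −2.65 and −2.43 (GenX10), in log2. No alternative brought a fetal Pigr difference past the threshold. The fetal PFOA1 difference of 0.01 turned to −0.0084 with quantile normalization repeated, to −0.0097 with arrays centred on their medians and to −0.0001 without the arrays of low Xist, and lay between −0.0478 and 0.0583 with single arrays left out. Fetal GenX10 minus GenX2 lay between −0.1376 and 0.0100, the last without GenX10 replicate 1. With the replicate number as a block, the maternal differences were −1.11, −3.61, −0.56 and −2.51, and the fetal ones 0.01, −0.12, −0.09 and −0.10 against control. The block brought no fetal difference of Pigr past the threshold, and moved the calls in maternal PFOA5 from 7 to 7 (ligands and receptors), 7 to 6 (transcytosis) and 5 to 6 (upstream factors). Of 171 calls of named genes, 85 were kept under every alternative, 86 were lost in at least 1, 16 were lost in most of them, and 0 changed sign. The number of called members of a list stayed within 1.5 times the main number in 856 of 1008 recounts, and in 788 of 960 with an array left out. Lists with 0 calls that stayed at 0 are among these, as in most recounts of maternal PFOA1, so the shares overstate how stable the other counts were. The count of 4 Kupffer cell and macrophage markers in maternal PFOA5 moved further in 9 refits with an array left out, within 0 to 8. The cause of these changes was not tested. Signals near background limit what Pigr can show in fetal liver and in maternal PFOA5.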

Other observations

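Genes near Pigr on the chromosome and in its transport route also differed between the tissues. C4bp, bright in dams at 10.90 in controls, was dim in fetal controls at 5.35, as was Asgr1 on all but 1 of the 25 fetal arrays. Fcgrt, in contrast, was above background on all 25 fetal and all 25 maternal arrays, with 8.88 ± 0.44 in fetal and 9.14 ± 0.19 in maternal controls (SD, n = 5 each). Mapkapk2 rose in maternal PFOA5 and GenX10 but fell in fetal GenX2 (−0.24 ± 0.06) and GenX10 (−0.26 ± 0.07). The difference between the tissues was not tested.

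Among the transporters of the bile canaliculus, the fetal changes went both ways. Abcc2, the conjugate export pump, rose in fetal PFOA5 (0.69 ± 0.14, limma adjusted p = 0.0047) and GenX10 (0.58 ± 0.16). Aqp8, a water channel, fell in fetal PFOA5 (−1.01 ± 0.24) and GenX2 (−0.95 ± 0.25). Sdc1, a syndecan that marks plasma cells and is also made by hepatocytes, had differences of 0.31 to 0.50 that passed in all 4 fetal groups. It was dim on every fetal control and every fetal GenX10 array, and above background on 2, 4 and 2 arrays of PFOA1, PFOA5 and GenX2. The other measured B and plasma cell markers were dim on every array.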
